A study of Mus musculus with 6 samples.

Results

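The microRNA (miRNA) hairpin Mir342 gives a mature strand from each arm, miR-342-5p and miR-342-3p. They were measured in bone marrow-derived macrophages labelled as Dicer knockout (KO) and in macrophages labelled as Dicer wild type (WT). The strands were taken by name from a table of threshold cycles and are 2 of its 596 miRNA assays. The KO samples came from 3 mice of genotype LysM-Cre/Dicerflox/flox/Apoe-/-, and the WT samples from 3 mice of genotype LysM-Cre/Dicerwt/wt/Apoe-/-. Both groups therefore carried the LysM-Cre driver and lacked Apoe, and all mice were male and 6 to 8 weeks old. The driver is active in the myeloid lineage, so the floxed gene is cut only in cells where it is or has been on. Marrow cells grew for 7 days with 10% L929-conditioned medium, a source of macrophage colony-stimulating factor. No assay of Dicer mRNA was on the panel, so the genotypes were not checked at the targeted gene.

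Dicer is the RNase that cuts the precursor hairpin into a duplex, from which 1 strand is usually kept in Argonaute and the other is usually lost. Mir342 lies in an intron of Evl, which encodes an actin regulator of the Ena/VASP family, and is read out with its host. In mouse macrophages of early atherosclerotic lesions miR-342-5p is known to repress Akt1 and thereby to raise miR-155 and inflammatory gene expression. miR-342-3p is known as a miRNA of lymphocytes and of differentiating myeloid cells.

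The sequences are shown because the assays report each arm of the same hairpin separately. In RefSeq on GRCm38.p6 the hairpin is at chr12:108658620-108658718 on the plus strand, 103.9 kb after the start of Evl (chr12:108554681-108688516). miR-342-5p is at chr12:108658638-108658659 and miR-342-3p at chr12:108658680-108658702. In the mature strands the capitals mark the seed, bases 2 to 8, and in the hairpin they mark the mature strands.
miR-342-5p: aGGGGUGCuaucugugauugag
miR-342-3p: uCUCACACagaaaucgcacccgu
Mir342 hairpin: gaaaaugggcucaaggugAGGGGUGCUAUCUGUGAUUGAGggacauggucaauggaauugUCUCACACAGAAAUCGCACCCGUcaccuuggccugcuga
The seeds differ, and 0 of the other mature mouse miRNAs in the RefSeq table (1679 names in all) shared either one. In a predicted fold of the hairpin (RNAfold), 17 of the 22 bases of miR-342-5p paired with miR-342-3p, which has 23 bases.

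Levels are threshold cycles (Ct), the number of PCR cycles until the signal crosses a threshold, so a Ct higher by 1 stands for 2-fold less template. Wells without amplification are listed at 40, and a Ct of 35 was taken as the ceiling of measurement. The log2 relative abundance is the mean Ct of 5 endogenous small RNA controls of the same sample and block of rows minus the Ct of the miRNA. Both strands lay in the first block, whose control means were 22.8, 20.3 and 19.3 in KO replicates 1, 2 and 3, against 21.1, 20.6 and 19.1 in WT. KO replicate 1 had the latest controls, and results are given without it where that moves them. The test took in the 282 assays that every sample of KO, of WT or of both measured below the ceiling. miR-342-3p was below it in all 6 samples, whereas miR-342-5p passed this filter through WT alone. In such bulk RNA, fewer cells that make a miRNA and less of it per cell cannot be told apart.

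miR-342-3p, the strand with the earlier signal, fell in KO macrophages. Its Ct was 27.70, 23.48 and 20.40 in KO replicates 1, 2 and 3, against 20.78, 20.82 and 18.98 in WT. Relative to the controls its log2 level was -4.86, -3.20 and -1.07 in KO, against 0.29, -0.27 and 0.13 in WT, so the groups did not overlap. The KO samples were far apart from each other, 30.0-fold, 9.53-fold and 2.17-fold below the WT mean, while the WT samples stayed close together. The mean log2 level was -3.04 ± 1.90 in KO and 0.05 ± 0.28 in WT (SD, n = 3 each), 8.53-fold lower in KO (limma, log2 difference -3.09 ± 0.96, SE; adjusted p = 0.0457, 0.0547 with the replicate number as a block). The 95% interval of this fold ran from 1.75 to 41.4, and an exact permutation test over samples gave p = 0.1 (two-sided), the smallest that 3 against 3 allow.

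miR-342-5p, the strand with the later signal, was lower as well. Its Ct was 32.02 and 28.94 in KO replicates 2 and 3 and it did not amplify in KO replicate 1 (Ct 40), against 28.88, 28.40 and 27.07 in WT. Its log2 level was -12.2 or lower, -11.7 and -9.60 in KO replicates 1, 2 and 3, against -7.81, -7.84 and -7.96 in WT. The groups did not overlap, and KO replicate 3 was again nearest to WT. The mean was -11.2 ± 1.37 or lower in KO and -7.87 ± 0.08 in WT (SD, n = 3 each), at least 9.84-fold lower in KO if the failed well stands for an absence (limma, log2 difference -3.30 ± 0.76, SE; adjusted p = 0.0312). Because miR-342-5p entered the test through WT alone, the filter favoured a difference, and this p is no independent support for one. With no filter the difference was the same and the adjusted p was 0.167, over 596 assays. The adjusted p of miR-342-3p rose there as well, to 0.186, so this rise does not measure the bias of the filter. For miR-342-5p the 95% interval ran from 2.84-fold to 34.2-fold with the failed well at the ceiling, and the exact permutation test gave p = 0.1 (two-sided). With the 2 KO wells that amplified alone, the difference was -2.80 (limma, adjusted p = 0.0262).

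Falls were common on this panel. In the same limma fit 105 of the 282 tested assays (37.2%) fell and 1 (0.355%) rose, and with the replicate block 118 (41.8%) fell. The KO values were all under the WT values in 169 assays (59.9%). The median difference over all tested assays was -1.91, 3.76-fold lower in KO. A larger fall than that of miR-342-3p was seen in 35 assays, and in 7 of the 201 that were measured in all 6 samples. A larger fall than the bound of miR-342-5p was seen in 27 assays.

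**Figure D1:**
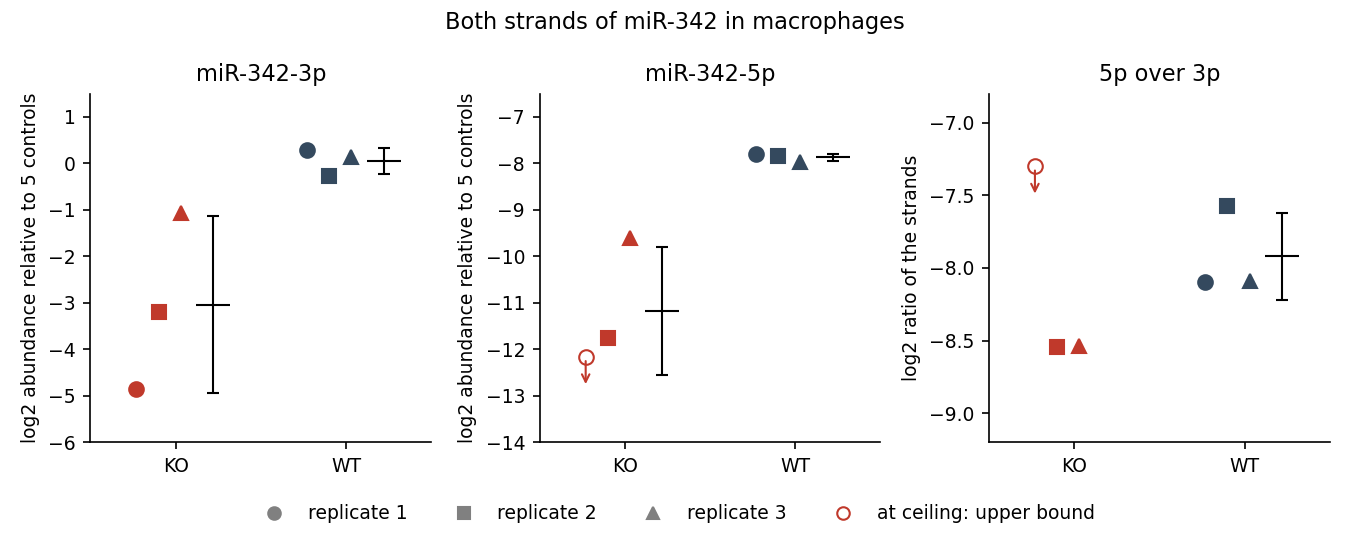
Log2 abundance of miR-342-3p and miR-342-5p relative to the controls, and the log2 ratio of the strands, in each KO sample (left) and WT sample (right); shapes are replicate numbers, and bars are the mean and SD of 3 samples. The open symbol is KO replicate 1, where miR-342-5p did not amplify, so that the point and the KO mean of miR-342-5p are upper bounds and no KO mean is drawn for the ratio; all KO samples lie below WT for both strands.

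The call was less firm than the direction. Both differences were negative under each of the 25 alternatives run for miR-342-3p and the 24 for miR-342-5p, but the adjusted p of miR-342-3p ranged from 0.0186 to 0.481 and passed the threshold of 0.05 in 8 of them, and that of miR-342-5p ranged from 0.0137 to 0.32 and passed in 13. Leaving out KO replicate 1 gave -2.18 for miR-342-3p (4.54-fold lower; adjusted p = 0.0712) and -2.80 for miR-342-5p (adjusted p = 0.0415). Leaving out KO replicate 3 gave -4.08 for miR-342-3p (16.9-fold lower; adjusted p = 0.0275). For miR-342-5p it gave -4.08 or lower (at least 16.9-fold; adjusted p = 0.0137), with KO replicate 1 at the ceiling. The match in size therefore rests on where the ceiling was set. Without KO replicate 2 the adjusted p was 0.0939 for miR-342-3p and 0.0605 for miR-342-5p. Without WT replicates 1, 2 and 3 in turn it was 0.119, 0.122 and 0.0941 for miR-342-3p and 0.111, 0.109 and 0.0733 for miR-342-5p. The choice of control moved the size little: with each of the 5 controls alone as reference the difference of miR-342-3p lay between -3.21 and -2.93, and that of miR-342-5p between -3.42 and -3.14.

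The position of miR-342 among the other assays differed between the KO samples. In KO replicate 1, where the median assay was 4.90-fold below the WT mean, 27 of the 282 assays (9.57%) lay further below it than miR-342-3p. In KO replicate 2, with a median of 3.13-fold, 25 assays (8.87%) did. In KO replicate 3, with a median of 2.68-fold, 168 assays (59.6%) did, so that miR-342-3p lay above the median assay there. miR-342-5p was passed by 19 assays (6.74%) in KO replicate 2 and by 100 (35.5%) in KO replicate 3. The cause of this difference between the KO cultures was not tested.

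**Figure D2:**
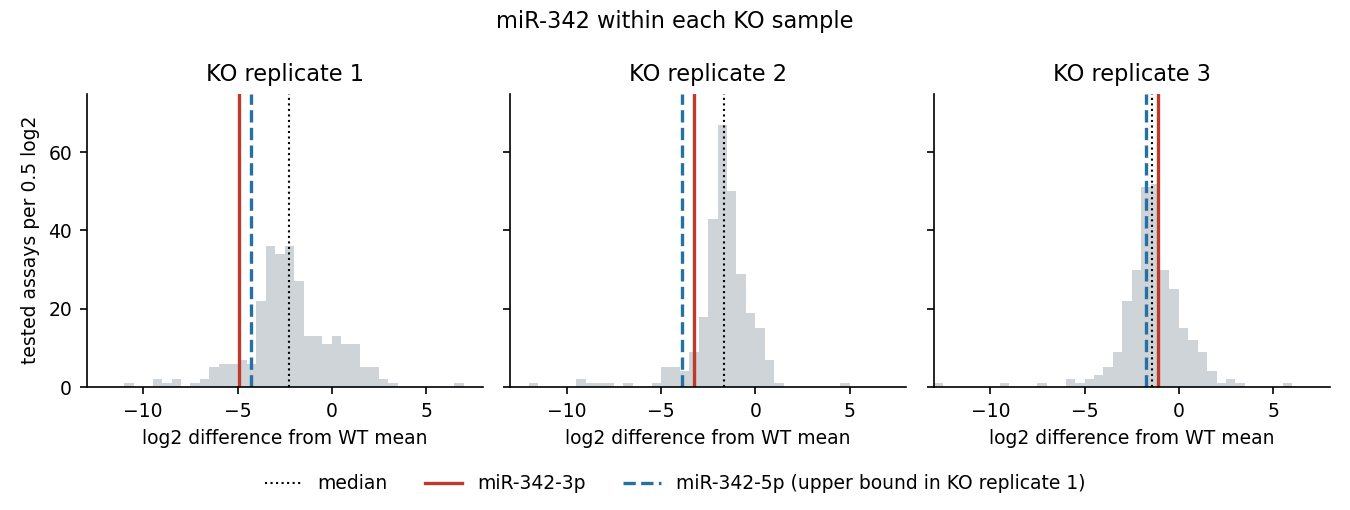
Number of tested assays (of 282) by log2 difference from the WT mean, in bins of 0.5, in each KO sample, with lines at the median assay, miR-342-3p and miR-342-5p. Both strands lie in the lower tail in KO replicates 1 and 2 and near the median in KO replicate 3; in KO replicate 1 the value of miR-342-5p is an upper bound.

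The well of miR-342-5p in KO replicate 1 carries little information. The Ct of miR-342-5p exceeded that of miR-342-3p by 8.55 and 8.54 in KO replicates 2 and 3, against 8.10, 7.58 and 8.09 in WT (7.92 ± 0.30, SD, n = 3). With the WT gap added to the Ct of miR-342-3p in KO replicate 1, miR-342-5p would come at Ct 35.6, past the ceiling. Such wells were frequent in that sample: of the 43 tested assays, miR-342-5p included, whose WT mean Ct lay within 1 of its own, 11 were at or above the ceiling in KO replicate 1, 3 in KO replicate 2 and 1 in KO replicate 3. Across the panel 45 of the 282 tested assays, miR-342-5p among them, were measured in every sample but KO replicate 1.

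The ratio of the strands asks whether they differed from WT by different amounts. Because both assays are in 1 block, the controls cancel in it, but its level also holds the efficiency of the assays and is not a ratio of molecules. The log2 ratio of miR-342-5p to miR-342-3p was -7.30 or lower, -8.55 and -8.54 in KO replicates 1, 2 and 3, against -8.10, -7.58 and -8.09 in WT. The 2 KO samples with a measured ratio lay below all WT samples, and the bound of KO replicate 1 lay above all of these. The difference was -0.21 ± 0.56 (SE) with KO replicate 1 at its bound and did not pass the test (limma over the strand ratios of 37 hairpins, adjusted p = 0.845; 95% interval -1.52 to 1.11; exact permutation p = 0.6). Without KO replicate 1 it was -0.62 (adjusted p = 0.658; 95% interval -1.83 to 0.59). These intervals include both no difference and a ratio changed by more than 2-fold, so they do not show that the strands moved alike.

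Of 108 hairpins with assays of both strands, 37 had both strands tested. The ratio was 5p over 3p for 15 of them and the strand named with an asterisk over its partner for 22. Pairs split between the blocks, such as that of miR-21, keep the controls of each. The ratio passed the limma test for 2 (5.41%), both higher in KO, and for 1 with the replicate block, and 4, all higher in KO, had an unadjusted p under 0.05. The 2 were miR-21, whose asterisk strand gained on its partner by 7.93 on the log2 scale (adjusted p = 0.000348), and miR-1897, whose 5p strand gained at least 7.40, since its 3p strand was at the ceiling in all KO samples (adjusted p = 0.00773, 0.069 with the replicate block). miR-1897-3p entered the test through WT alone, so the p of this ratio is no independent support for a difference. The ratio of miR-1897 did not pass without WT replicate 2 (0.103), with no filter (0.235) or with a ceiling of 32 (0.152). miR-331 followed at 2.76 (adjusted p = 0.269). At the other end stood miR-463 (-1.90) and miR-146b (-1.68), each with a strand at the ceiling in at least 1 sample, and miR-345 at -2.14 or higher, since miR-345-3p did not amplify in any KO sample. Their adjusted p values ran from 0.602 to 0.719, and the ratio of miR-345 was 0.86 with a ceiling of 38 and 2.86 with none. The order of such bounded ratios is therefore not settled. The median over the hairpins was -0.07, and that of miR-342 was -0.21 or lower. miR-191 at -0.27 and miR-674 at -0.16, next to that bound, differed from it by less than the standard error.

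**Figure D3:**
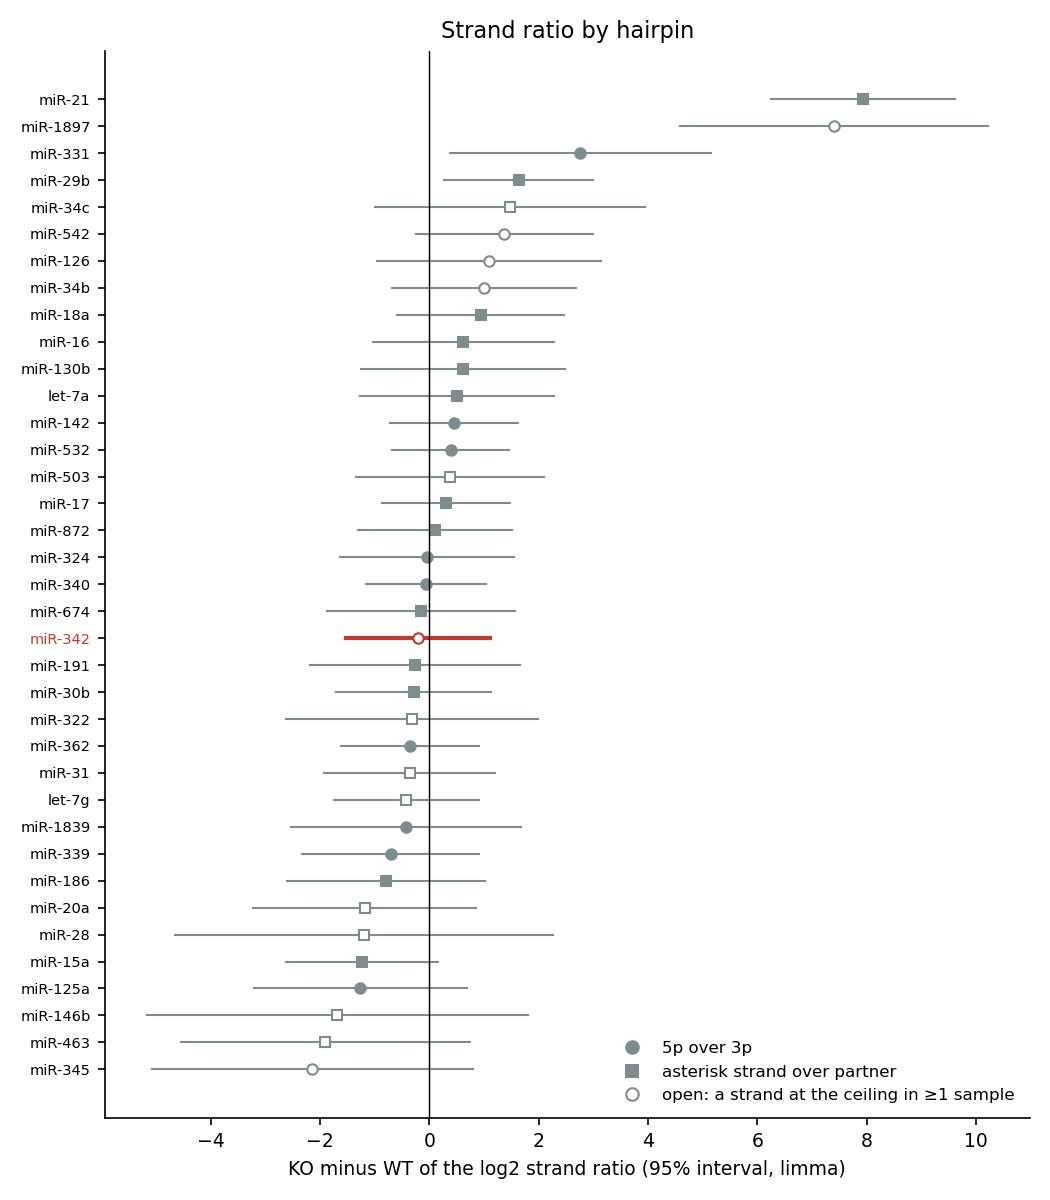
KO minus WT of the log2 strand ratio for the 37 hairpins with both strands tested, with 95% intervals from limma; circles are 5p over 3p, squares the asterisk strand over its partner, and open symbols have a strand at the ceiling in at least 1 sample. The bound of miR-342 (red) is at -0.21, and miR-21 and miR-1897 lie apart at the top.

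The miRNA nearest in profile to both strands was miR-1930, with miR-342-5p of KO replicate 1 set to the ceiling. Likeness was taken over the 6 samples as the root mean square difference of log2 levels, each assay set to its own WT mean. To miR-342-3p, among 200 assays measured in all samples, miR-1930 stood at 0.44, miR-185 at 0.51 and miR-139-5p at 0.52. To miR-342-5p, among 252 assays measured in at least as many samples, miR-1930 stood at 0.33, miR-342-3p itself at 0.47 and miR-139-5p at 0.52. The distances to miR-342-5p depend on where the ceiling was set, so the order of its nearest assays is not settled. These 3 assays were 8.00-fold (miR-1930), 7.42-fold (miR-185) and 8.99-fold (miR-139-5p) lower in KO, sizes that follow from choosing them for their likeness and are a description. The same holds for their order over the KO samples, lowest in KO replicate 1 and nearest to WT in KO replicate 3, where they lay at -1.69 (miR-1930), -1.64 (miR-185) and -2.12 (miR-139-5p), below miR-342-3p at -1.12.

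**Figure D4:**
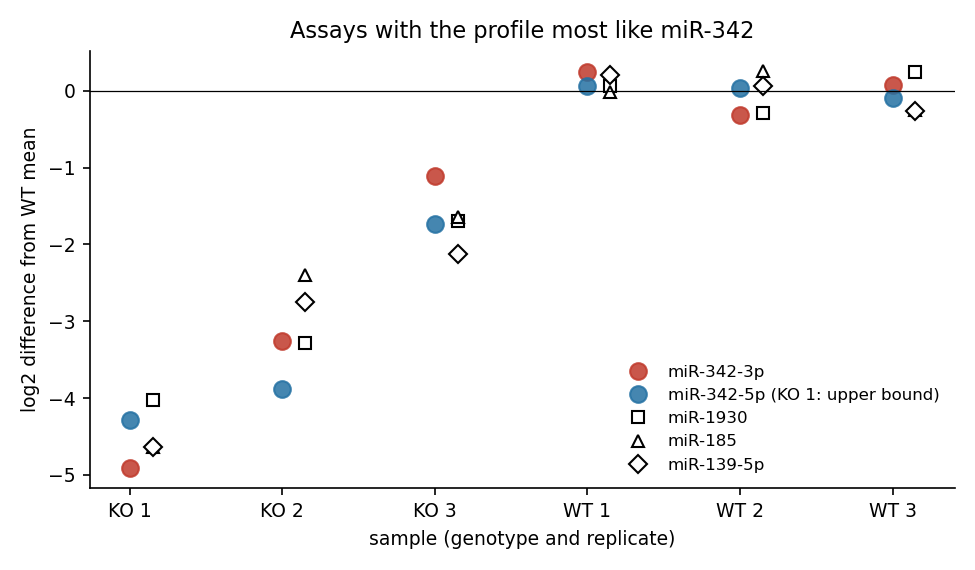
Log2 difference from each assay's own WT mean in the 3 KO samples (left) and the 3 WT samples (right), for both miR-342 strands (filled) and the 3 assays nearest in profile (open). All 5 are lowest in KO replicate 1 and nearest to WT in KO replicate 3; the miR-342-5p value of KO replicate 1 is an upper bound.

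The miRNAs tied to the Akt1 pathway, on which miR-342-5p acts, had smaller differences than either strand, a contrast that was not tested. In mouse macrophages Akt1 is known to control let-7e, miR-125b-5p, miR-155 and miR-181c. All 4 were tested, and 1, miR-181c, passed at 3.44-fold lower (adjusted p = 0.0456), beside 37.2% of all tested assays. let-7e was at -1.80 (adjusted p = 0.0504) and passed in 8 of 19 alternatives other than leaving out a sample (lowest adjusted p 0.0261), miR-125b-5p at -1.22 (adjusted p = 0.128) and miR-155 at -1.93 ± 1.01 (SE; adjusted p = 0.155). The median of the 4 was -1.79, beside -1.91 over all tested assays. The fall of miR-342-3p was exceeded by 0 of the 4 and by only 35 of all 282 tested assays, so this 0 is no result about them. miR-181c did not pass without KO replicate 2 (0.0768), KO replicate 3 (0.0869) or any 1 WT sample (0.0764 to 0.154), and miR-155 passed without KO replicate 3 (0.0435).

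Myeloid miRNAs had a median difference near that of the panel. Of miR-223, miR-142-3p, miR-142-5p, miR-155, miR-146a, miR-21, miR-24 and miR-146b, 3 of 8 fell (5 with the replicate block, 2 without KO replicate 1, 5 without KO replicate 3, and 0 without KO replicate 2 or any 1 WT sample). That share lies near the 37.2% of all tested assays (41.8% with the block), so it is no result about these miRNAs. Their median was -1.92, with members from -2.21 (miR-21, adjusted p = 0.0312) to -1.44 (miR-142-5p, adjusted p = 0.0735, 0.0483 with the replicate block). Their summed log2 level was 3.38 to 4.51 in KO and 5.75 to 6.33 in WT, while 59.9% of all tested assays had all KO values under WT. The fall of miR-342-3p was exceeded by 0 of the 8 and by only 35 of all 282 tested assays, so this 0 is no result about them either.

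Markers of other cells that such cultures could hold differed between the groups in part, with 37.2% of all tested assays lower (41.8% with the replicate block). The lymphocyte markers miR-150, miR-181a and miR-155 had a summed log2 level of -4.82 to -3.90 in KO and -2.76 to -2.20 in WT. KO values all under the WT values were seen in 59.9% of all tested assays, so such a gap was common. Of the 3 markers 1 fell, miR-181a, which had the earliest signal (0 without KO replicate 1). miR-150 was at -1.19 (limma, adjusted p = 0.326), and miR-155 is also among the myeloid miRNAs above. The part of lymphocytes in the fall of miR-342 was not tested. The epithelial markers had a summed log2 level of -5.48 to -4.46 in KO and of -4.07 to -3.46 in WT. Of the 4 tested, 0 passed (1 with the replicate block, miR-141 at an adjusted p of 0.0485, and 1 without KO replicate 1). miR-205 was at the ceiling in all samples. The stromal markers had a summed log2 level of -4.36 to -3.34 in KO, inside the WT range of -7.34 to -0.70. Of 5 tested assays 1 passed, an assay of miR-10b. It was at the ceiling in KO replicate 1 and entered the test through WT alone. A second assay of miR-10b, also in the sum, was not tested. Its Ct was 40, 40 and 35.4 in KO replicates 1, 2 and 3, against 34.96, 35.4 and 33.9 in WT. The endothelial marker miR-126-3p was at -12.2 to -7.52 in KO and -7.50 to -6.56 in WT (limma, adjusted p = 0.16). The -12.2 is an upper bound, since miR-126-3p was past the ceiling in KO replicate 1. Of the erythroid markers miR-486 was at the ceiling in all samples and miR-451 was not tested. The defining myeloid markers miR-223, miR-142-3p and miR-142-5p were measured in all 6 samples. They too were lower in KO, with a summed log2 level of 2.59 to 3.51 in KO and 4.28 to 5.39 in WT. Of these 3, 2 fell (3 with the replicate block, 1 without KO replicate 1 and 0 without KO replicate 2).

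In the authors' deposited table of relative quantities, scaled to the WT samples, miR-342-3p stood at 0.0371, 0.109 and 0.46 in KO replicates 1, 2 and 3, against 1.22, 0.781 and 1.05 in WT. There miR-342-5p stood at 0.00178, 0.071 and 0.3 in KO, against 1.08, 0.991 and 0.933 in WT. The fold change of KO over WT in the authors' deposited table was 0.199 for miR-342-3p and 0.124 for miR-342-5p, that is 5.03-fold and 8.07-fold lower. Geometric means of the relative quantities in the authors' deposited table gave 8.12-fold and 29.8-fold. In the deposited quantities the well at Ct 40 counts as a number, and an arithmetic mean is led by KO replicate 3, the KO sample with the highest values.

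**Figure D5:**
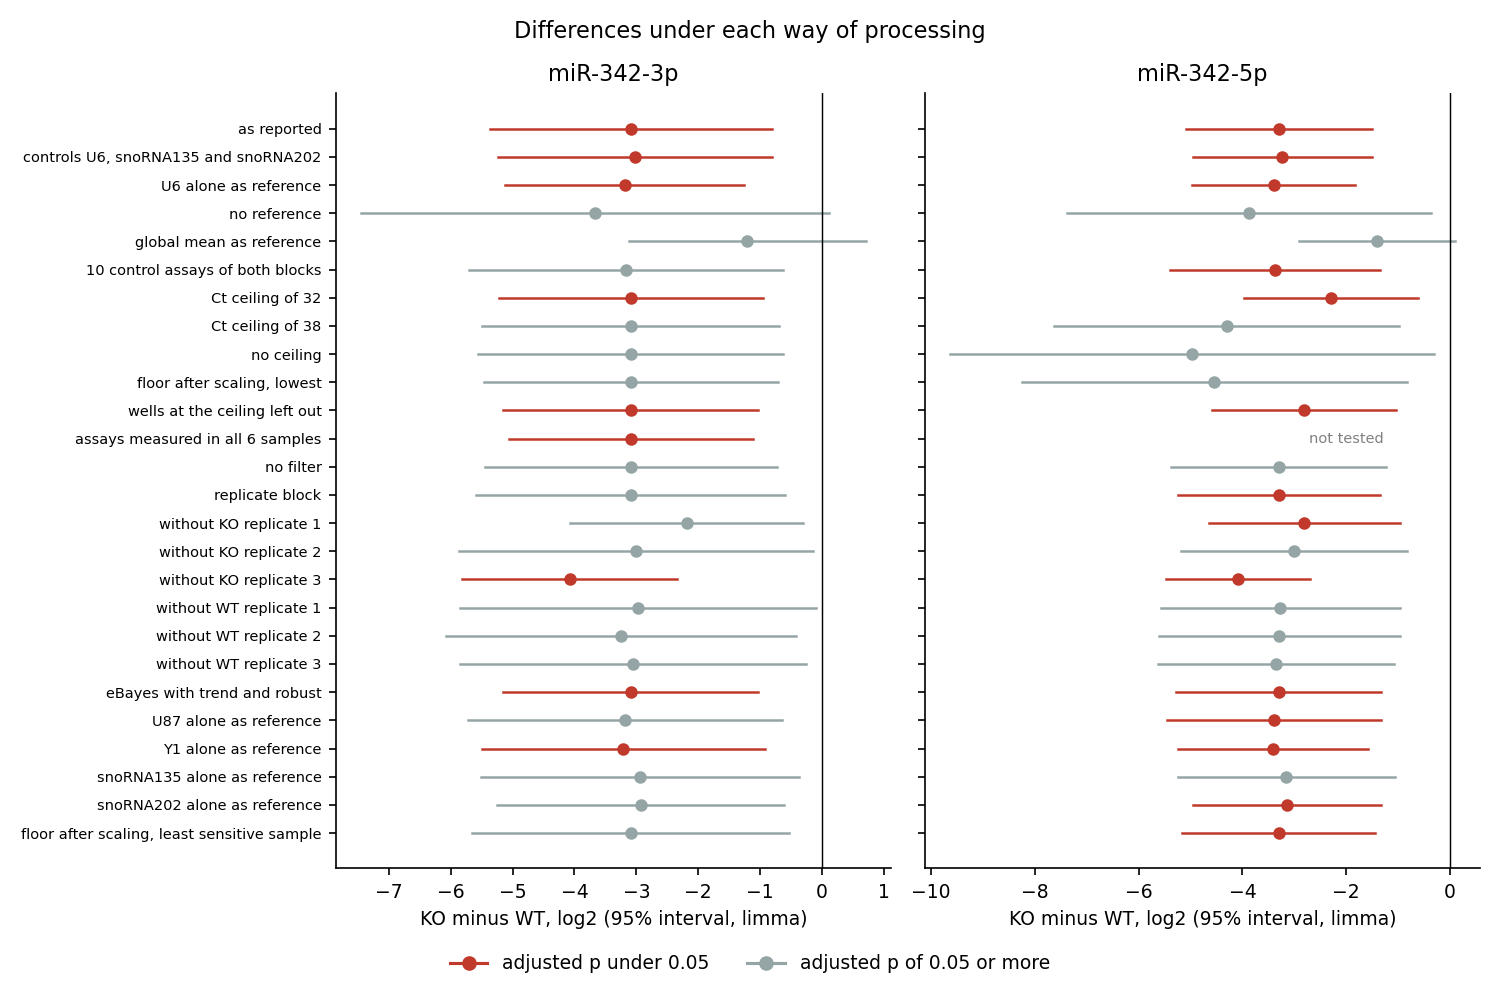
KO minus WT log2 difference of miR-342-3p (left) and miR-342-5p (right) with 95% limma intervals, as reported (top) and under each alternative reference, ceiling, filter, fit or left-out sample; red marks an adjusted p under 0.05. All points lie below 0, and the global mean as reference gives the smallest differences, -1.21 and -1.41.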

How the data were processed

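TaqMan RT-PCR was run on 3 KO and 3 WT samples. Per the labels' protocols, mirVana-purified RNA was reverse transcribed and preamplified, while the sources used here give neither instrument nor software. The deposited files hold Ct scores of 608 assays, relative quantities scaled to WT (a ratio, by the authors) and KO over WT fold changes (by the authors). Input is known only through the controls, and precision is limited by having 3 samples a group.

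The Ct scores were used for all tests. Ct at or above 35 was set to 35, and the mean of the 5 controls of the block was subtracted. The fits used limma 3.58.1 and R 4.3.3 (two-sided, lmFit then eBayes), with p values adjusted by Benjamini-Hochberg over 282 assays or, for strand ratios, over 37 hairpins with identical stem names. All adjusted p values printed for a miRNA or a strand ratio come from limma. The fit was also run on simulated data, with equal spread in all assays and no ceiling, failed wells or pairing. That run therefore does not cover these features of the data. Exact permutation tests used scipy 1.17.1 in Python 3.11.15, the fold ViennaRNA 2.7.2 and figures matplotlib 3.10.9. Sequences are from RefSeq (GRCm38.p6), where both strands matched by name.

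The mice share replicate numbers between groups. Deviations from the group means correlated between mice of 1 number (correlations across assays of 0.23, 0.28 and 0.27, against -0.28 to 0.01 for unlike numbers). Deviations from a mean of 3 samples sum to 0, so positive values for like numbers bring negative ones for unlike numbers. Part of this contrast is therefore built in. A pairing was only weakly inferred from these same data, with no batch stated in the labels. The main fits do not use it, and a fit with the number as a block was run beside them. With the block miR-342-3p did not pass (limma, adjusted p = 0.0547). The blocked value or count is given where it changes a call. Named were both strands, the 3 assays most like each, the 3 hairpins at each end of the strand ratio and those next to miR-342, and members of lists (Akt1-regulated, myeloid, intronic, and markers of other cells). The members and lists were chosen with earlier results of these data known. In all, 20 alternatives were planned and 5 added after seeing the data.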

Additional observations from a re-analysis of the deposited data

How the results depend on the processing

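Under every alternative run both strands stayed lower in KO. For miR-342-3p the difference was -3.09 with an adjusted p above 0.05 with a Ct ceiling of 38 (0.0545), no ceiling (0.0621), a floor set after scaling at the lowest (0.0503) or the least sensitive (0.0601) sample's limit, no filter (0.186) and the replicate block (0.0547). It was -3.67 without a reference (0.256), -1.21 with the global mean (0.481), -3.16 with the 10 controls of both blocks (0.0533), -3.19 with U87 alone (0.0582), -2.94 with snoRNA135 alone (0.0911) and -2.93 with snoRNA202 alone (0.0522). Leaving out 1 sample gave -4.08 to -2.18. For miR-342-5p it was -3.87 without a reference (0.256), -1.41 with the global mean (0.32), -4.30 with a ceiling of 38 (0.0545), -4.97 with no ceiling (0.084), -4.54 with the floor after scaling at the lowest limit (0.0538), -2.29 with a ceiling of 32 (at least 4.90-fold lower; 0.036), -3.30 with no filter (0.167) and -3.15 with snoRNA135 alone (0.0711). Leaving out 1 sample gave -4.08 to -2.80, bounds wherever KO replicate 1 was kept. miR-342-5p could not be tested where all 6 samples had to be measured. The block changed no other call of either strand or their ratio.

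The strand ratio of miR-342 turned to 0.80 with a ceiling of 32, which puts miR-342-5p of KO replicates 1 and 2 at the ceiling. It was -1.21 with a ceiling of 38 (0.427), -1.87 with none (0.493), -1.45 with the floor after scaling at the lowest limit (0.521) and -0.62 with wells at the ceiling left out (0.753). It ranged from -0.62 to 0.00 (0.0015 without KO replicate 2) with 1 sample left out. The count of assays lower in KO was 105, 2 without a reference, 2 with the global mean, 2 with no filter, 4 with snoRNA135 alone and 2 to 112 with 1 sample left out. With the global mean let-7e turned to 0.0895, miR-125b-5p to 0.67, miR-181c to 0.10 and miR-345-3p to 1.17. miR-345-3p passed with a ceiling of 38, with none and with the floor after scaling at the lowest limit (-2.43, 0.0366). It did not amplify in any KO sample, so these passes rest on where the limit was set and on a filter met through WT alone. The count of hairpins past the threshold in the ratio was 2, and 1 with a ceiling of 32, wells at the ceiling left out, all 6 samples measured, no filter or the replicate block, and 1 to 3 with 1 sample left out. The ratio of miR-345 turned to 0.86 with a ceiling of 38 and 2.86 with none, and was -2.86 (0.0223) with the floor at the least sensitive sample's limit, and that of miR-146b to 0.32 and of miR-191 to 1.01 with a ceiling of 32. With U87 alone the ratios of miR-191 and miR-674 were 0.002 and 0.11. With 1 sample left out the ratio of miR-191 ranged from -0.77 to 0.45, that of miR-674 from -0.73 to 0.23 and miR-345-3p from -1.73 to 0.0224 (without KO replicate 3). Where no cause is named, the cause was not tested. The depth limit is the ceiling, which only miR-342-5p of KO replicate 1 reached among the 12 values of both strands.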

Other observations

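The nearest annotated miRNA gene to Mir342, and the only one within 500 kb, was Mir345 (chr12:108836973-108837068, GRCm38.p6), 178 kb further along the chromosome; it was chosen for its position. miR-345-5p had Ct values of 33.0, 28.8 and 28.2 in KO replicates 1, 2 and 3, against 26.8, 27.2 and 25.7 in WT, and fell 7.27-fold (limma, adjusted p = 0.0312; log2 difference -3.19 to -2.38 with 1 sample left out, past the threshold in 2 of 6 such fits). miR-345-3p amplified in 0 of 3 KO samples and had Ct values of 33.2, 34.9 and 33.0 in WT, so close to the ceiling that the difference was only bounded, at -0.72 or lower (adjusted p = 0.613). It was -3.72 with a ceiling of 38 (adjusted p = 0.0448) and -5.72 with none (0.0378). miR-345-3p entered the test through WT alone, and its KO values are the chosen ceiling or the listed Ct of 40. These p values therefore give no independent support for a fall.

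Like miR-342, many miRNAs of macrophages lie in introns of protein-coding genes. Of 30 tested assays of other such miRNAs, 18 fell and 0 rose with limma, with a median of -2.21, beside 105 of 282 (37.2%) and a median of -1.91 over all tested assays. The count was 22 with the replicate block, 1 without KO replicate 2 and at most 1 without any 1 WT sample. Among them miR-652, in Tmem164, fell 12.3-fold (adjusted p = 0.0312), miR-103, in Pank genes, fell 9.35-fold (adjusted p = 0.0311), and miR-744, in Map2k4, fell 7.86-fold (adjusted p = 0.0312). The highest was miR-188-5p, in Clcn5, at 0.47 (adjusted p = 0.669). A larger fall than that of miR-342-3p was seen in 8 of the 30, beside 35 of all 282 tested assays. Of these 8, miR-107, miR-425, miR-151-3p, miR-326, miR-98 and miR-501-3p had a KO well at the ceiling, so their falls are bounds. miR-98, at -11.1 or lower, was measured in 0 KO samples.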
